A study of Homo sapiens with 4 samples.

Results

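The genes described here are 60 that build the extracellular matrix or bind cells to it. They are 8 laminins, 4 proteins that link basement membranes, 15 fibrillar and associated collagens, 10 matrix glycoproteins, 5 chondroitin sulfate and SPOCK proteoglycans, 7 syndecans and glypicans, and 11 integrins and dystroglycan. They were chosen by gene symbol, and each matched 1 of the 77973 gene rows of the deposited table. Of the 60, 32 had a mean of at least 20 reads over the libraries, as did 8145 of all genes, and 56 had a mean of at least 5 reads.

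Full-length cDNA was sequenced by PacBio Iso-Seq from cortical neurons (i3N), which were made by doxycycline-driven expression of human NGN2 (2 µg/mL doxycycline) in the human stem cell line KOLF2.1J, an induced pluripotent line in common use. Cells of all 4 groups carried dCas9-BFP-KRAB, a repressor that a guide RNA directs to a promoter (CRISPR interference), together with a lentiviral guide, and were puromycin-selected pools and not clones. The control group had a non-targeting guide and no drug, the TDP-43 CRISPRi group a guide against the gene of TDP-43, the 5-Azacytidine group 5 µM of this DNA methyltransferase inhibitor for 72 hours, and the last group both the TDP-43 guide and the drug. Neurons grown as spheroids were plated on day 8 onto Geltrex and laminin and harvested on day 12 or day 15, and the day of each library was not given in the sources used here. Each group had 1 library, so no difference has a replicate check. A test of reads between 2 libraries compares those libraries, and the only check is that the same difference came back in a second pair that shares no library with the first.

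The extracellular matrix is the protein and polysaccharide network outside cells. Laminins and type IV collagen form the sheets of basement membranes, nidogens and perlecan tie the sheets together, fibrillar collagens and fibronectin form fibres, and proteoglycans carry long sulfated sugar chains that hold water and growth factors. Integrins, which are pairs of an alpha and a beta chain, and dystroglycan are the receptors through which a cell grips laminin, fibronectin and collagen. In developing brain, progenitor cells rest on a laminin-rich basement membrane and are surrounded by versican and neurocan, while neurons make matrix proteins of their own such as reelin and the SPOCK proteins.

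The libraries held 595158, 767621, 466337 and 477622 reads assigned to genes in the control, knockdown, azacytidine and doubly treated library, the order in which reads are listed from here on. Between 58.5% and 68.1% of them were also assigned to a transcript. TARDBP, the gene of TDP-43, had 104, 72, 73 and 43 reads, with a knockdown log2 ratio of -0.67 (95% interval -1.13 to -0.23) without azacytidine and -0.73 (95% interval -1.31 to -0.17) with it. Levels are given as CPM, reads scaled to the effective library size, that is, the library total times its TMM scaling factor. The neuronal marker list summed to 3163, 3596, 3667 and 2750 CPM. Of markers of cortical neurons, CUX1 had 97, 83, 42 and 54 reads, CUX2 had 35, 56, 14 and 21, TBR1 had 16, 18, 2 and 7, FEZF2 had 12, 4, 1 and 0 and NEUROD2 had 10, 12, 23 and 37. NEUROD6 had no read in any library and BCL11B had 0, 2, 0 and 0, so the cortical label was met only in part. ISL1, a marker of peripheral and caudal neurons, had 145, 190, 88 and 66 reads. It belongs to a list of 7 such markers, which did not move together. Compared within the same guide, 2 of the 7, ISL1 included, had a lower CPM in each azacytidine library. Another 2 of the 7 had a higher CPM in each. Markers of dividing cells summed to 955, 954, 72.9 and 55.7 CPM, with all 6 tested called lower with azacytidine, and those of neural progenitors to 887, 803, 180 and 138 CPM, with 3 of 5 tested called lower. Among other cells that make matrix, the mesenchymal list summed to 41.9, 52.5, 30.4 and 10.3 CPM, with TWIST1, PRRX1 and DCN at 0 in all 4 libraries. The endothelial list summed to 32.3, 36.5, 10.1 and 2.06 CPM, and the astrocyte list to 197, 197, 101 and 94.9 CPM with AQP4 at 0 throughout. The sums for dividing, progenitor, mesenchymal, endothelial and astrocyte markers were lower in each azacytidine library than in the library with the same guide. So were CUX1, CUX2, TBR1, FEZF2 and ISL1 scaled to library size, while NEUROD2 was higher. The neuronal sum was higher with the drug without the knockdown and lower with it. The part of these markers in the azacytidine results below was not tested. Bulk libraries cannot tell fewer cells of a type from less RNA per cell.

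The summed level of the matrix genes was lower in both libraries with azacytidine than in both without it. The 60 genes together took up 4286 CPM in the control and 5221 CPM with the knockdown, against 2388 CPM with azacytidine and 2649 CPM with both. Of the 60, 44 were lower with the drug in both pairs and 11 were higher in both. These directions include members with very few reads and were not counted over all genes. A gene was called when both pairs had an adjusted p under 0.05 (exact binomial test, Benjamini-Hochberg adjustment over the 8145 genes) and a log2 ratio of at least 1 in the same direction. With azacytidine, 14 of the 32 members tested were lower, where the rule called 6.89% of all genes tested lower, and 2 were higher, where it called 2.93%. With the TDP-43 knockdown 1 was lower, beside 0.344% of all genes, and 0 were higher, beside 0.626%. At an unadjusted exact binomial p under 0.05 in both pairs, with no threshold of size, the knockdown had 2 members up, beside 5.83% of all genes tested, and 2 down, beside 1.53%. The additive edgeR and DESeq2 models also called 0 higher, beside 0.0368% and 0.0737%. By the same thresholds in 1 pair alone, 4 members were higher with azacytidine without the knockdown, beside 6.64% of all genes tested, and 17 were lower, beside 9.93%. In the pair with the knockdown 3 were higher, beside 9.5%, and 16 lower, beside 17%. In an additive DESeq2 model over the 4 libraries, 8 members were lower with azacytidine, beside 2.96% of all genes tested, and 0 higher, beside 0.405%, and the calls of LAMB2, LAMC1, COL5A2, GPC3, GPC6, ITGAV, ITGA3 and SPOCK2 were lost. Uniquely assigned reads alone left 11 members to test, 5 of them among the 16 called with azacytidine. They gave 3 lower, beside 3.89% of the 2982 genes tested, and 0 higher, beside 0.469%. The median log2 ratio with azacytidine over the 32 was -1.04 without the knockdown and -0.87 with it, while over all genes tested it was 0.04 and -0.10. With the knockdown the medians over the 32 were 0.23 without azacytidine and 0.09 with it, and 0.18 and 0.05 over all genes tested. The knockdown pairs and the azacytidine pairs are made from the same 4 libraries, so the 2 sets of ratios are not independent.

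**Figure D1:**
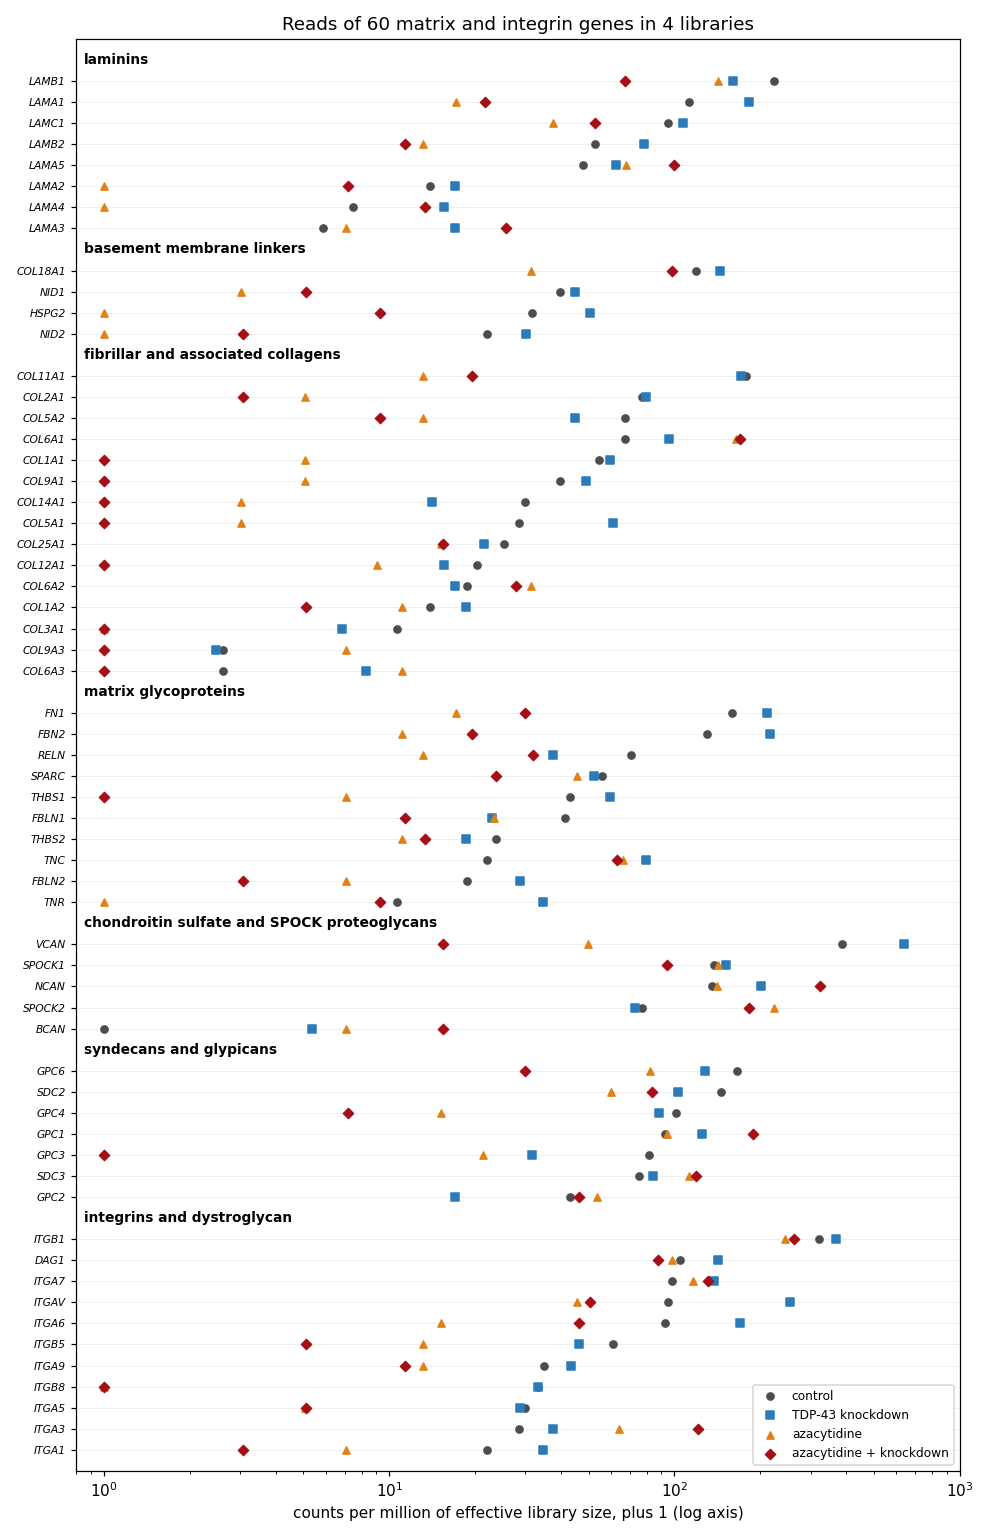
Each row is 1 of the 60 genes, grouped by role, and the x axis is its level in CPM of effective library size plus 1 on a log axis, with 1 point for each of the 4 libraries. In 44 rows each azacytidine point lies to the left of the point it is compared with, and SPOCK2, ITGA3 and COL6A1 are among the 11 with both to the right.

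**Figure D2:**
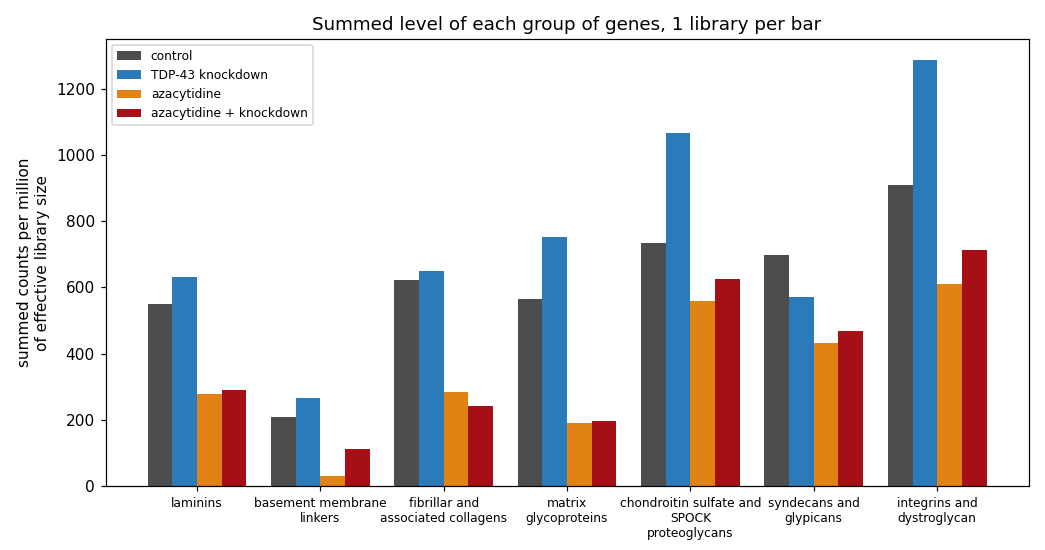
Bars give the summed CPM of effective library size of each role group, 1 library per bar and no error, since each group had 1 library. The matrix glycoproteins fall from 565 and 751 CPM to 192 and 196 CPM, and the basement membrane linkers from 208 and 266 CPM to 32.4 and 111 CPM.

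The promoters of members were read from RefSeq windows on GRCh38.p14 that span 250 bases before a transcription start and 50 after it. Windows were matched for 43 of the 60 members, taking the start nearest to that of the transcript with most reads. For SDC3 and COL6A3 that start lay 30018 and 83984 bases from the start of the most read transcript, so these windows are not those of the transcripts seen here, and for the other 41 it lay within 148 bases. CpG dinucleotides, the sites that DNA methylation marks, numbered a median of 30 per window in the members, 14 over all 35116 windows in the table and 26 in windows of the genes tested. The 10 called lower with azacytidine that had a window held a median of 26.5, the 11 tested but not called, SDC3 among them, a median of 41, and SPOCK2 held 13. GGGCGG, the core of the GC box, was found on either strand in 74.4% of member windows, in 45.0% of all windows and in 65.6% of those of the genes tested. TATAAA was in 6.98% of member windows, in 11.5% of all and in 5.93% of those of the genes tested. CAGATG, an E-box, was in 6.98%, 14.7% and 10.2% of them. These are matches of letters and say nothing of binding. The 250 bases before the start are shown for SPOCK2, which was higher with azacytidine, and for FBN2, COL11A1 and VCAN, chosen after their values were seen as the 3 with a window, among those called lower at a mean of 20 reads, whose smaller fall in the 2 pairs was largest. Each is printed 5′ to 3′ on the strand of the gene, with CpG in capitals.
SPOCK2: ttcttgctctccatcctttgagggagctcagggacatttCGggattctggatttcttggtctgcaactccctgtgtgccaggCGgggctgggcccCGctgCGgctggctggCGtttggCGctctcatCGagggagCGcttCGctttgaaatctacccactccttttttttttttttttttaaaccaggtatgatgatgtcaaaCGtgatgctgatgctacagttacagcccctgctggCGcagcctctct
FBN2: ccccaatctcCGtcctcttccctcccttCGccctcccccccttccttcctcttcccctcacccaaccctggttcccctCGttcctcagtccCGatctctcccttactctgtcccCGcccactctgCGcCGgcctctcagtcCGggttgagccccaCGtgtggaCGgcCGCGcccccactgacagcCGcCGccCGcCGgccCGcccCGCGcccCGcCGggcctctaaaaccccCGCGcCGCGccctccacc
COL11A1: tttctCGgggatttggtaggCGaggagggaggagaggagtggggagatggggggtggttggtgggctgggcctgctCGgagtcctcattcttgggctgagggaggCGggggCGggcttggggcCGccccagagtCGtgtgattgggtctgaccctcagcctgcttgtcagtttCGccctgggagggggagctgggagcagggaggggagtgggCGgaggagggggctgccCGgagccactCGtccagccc
VCAN: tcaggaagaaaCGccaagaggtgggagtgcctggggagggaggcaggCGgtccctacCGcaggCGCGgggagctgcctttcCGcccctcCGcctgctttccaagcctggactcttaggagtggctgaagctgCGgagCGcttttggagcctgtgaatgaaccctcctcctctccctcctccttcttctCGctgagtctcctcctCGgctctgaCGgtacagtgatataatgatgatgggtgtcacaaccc
The windows lie at chr10:72088552-72088801 (minus strand), chr5:128538246-128538495 (minus), chr1:103108523-103108772 (minus) and chr5:83471494-83471743 (plus). The FBN2 stretch holds 25 CpG, and those of SPOCK2, COL11A1 and VCAN hold 11, 11 and 12. A link between the number of CpG and the direction of change was not tested.

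Laminins are cross-shaped trimers of an alpha, a beta and a gamma chain, and the 8 laminin genes summed to 550 and 632 CPM without azacytidine and 279 and 291 CPM with it. Of 5 tested, 3 were called lower with azacytidine. LAMA1 (ENSG00000101680.16, chr18:6941742-7117797, minus strand), the alpha chain of the laminin of early embryonic basement membranes, had 69, 124, 8 and 10 reads. Its log2 ratio with azacytidine was -2.72 (95% interval -4.05 to -1.72, exact binomial adjusted p = 6.99e-09) without the knockdown and -3.08 (95% interval -4.23 to -2.21, exact binomial adjusted p = 7.08e-17) with it. LAMB2, a beta chain, had 32, 53, 6 and 5 reads, and ratios of -2.01 (95% interval -3.64 to -0.81, exact binomial adjusted p = 0.00199) and -2.81 (95% interval -4.59 to -1.59, exact binomial adjusted p = 5.24e-07). LAMC1, the gamma chain that most laminins share, had 58, 73, 18 and 25 reads and smaller ratios of -1.34 (95% interval -2.21 to -0.58) and -1.03 (95% interval -1.76 to -0.37), and its call was lost under 8 of 13 other settings. LAMB1, the beta chain with most reads in the control, had 138, 109, 70 and 32 reads and was lower in both pairs, but its ratio of -0.65 (95% interval -1.09 to -0.23, exact binomial adjusted p = 0.0113) without the knockdown did not reach the threshold of size. LAMA5, another alpha chain, had 29, 42, 33 and 48 reads and ratios of 0.51 (95% interval -0.25 to 1.29) and 0.68 (95% interval 0.06 to 1.33), neither with an adjusted p under 0.05. LAMA2, LAMA3 and LAMA4 were too low to test at this filter, with 0 to 12 reads in a library. LAMA1 thus lay lower in both libraries with the drug than in both without it, and the CPM of LAMA5 lay higher.

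The summed level of the basement membrane linkers with azacytidine was 15.6% of that without it in the pair without the knockdown and 42.0% in the pair with it. Only COL18A1, whose collagen XVIII carries heparan sulfate chains and is the source of endostatin, had enough reads for the main filter, with 73, 98, 15 and 47. Its ratio with azacytidine was -1.92 (95% interval -2.86 to -1.14, exact binomial adjusted p = 1.58e-06) without the knockdown and -0.56 (95% interval -1.09 to -0.04, exact binomial adjusted p = 0.0639) with it, so the fall did not come back at the required size in the second pair. Reads assigned to a COL18A1 transcript were 58, 57, 15 and 19. NID1, a nidogen that bridges laminin and collagen IV, had 24, 30, 1 and 2 reads. NID2, the other nidogen, had 13, 20, 0 and 1 reads, and HSPG2, the gene of perlecan, had 19, 34, 0 and 4. With the filter lowered to a mean of 5 reads, which left 13789 genes and called 6.19% of them lower with azacytidine and 2.48% higher, these 3 were called lower. The log2 ratio of HSPG2 was at most -1.90 (upper end of the 95% interval) without the knockdown and -2.47 (95% interval -4.54 to -1.10) with it. At that filter 25 members were called lower with azacytidine and 2 higher, and with the knockdown 1 lower and 0 higher, beside 0.305% and 0.471% of all genes. The members named here and below that are outside the calls at a mean of 20 reads, other than the member with most control reads in each role group, were picked out after their values were seen.

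Of the matrix glycoproteins, FN1 and FBN2 were called lower with azacytidine among 5 tested. FN1 (ENSG00000115414.21, chr2:215360440-215436073, minus strand), the gene of fibronectin, which integrins assemble into fibrils, had 98, 144, 8 and 14 reads. Both libraries with azacytidine lay far below both without it, and the log2 ratios were -3.22 (95% interval -4.54 to -2.25, exact binomial adjusted p = 1.15e-14) and -2.83 (95% interval -3.77 to -2.07, exact binomial adjusted p = 6.55e-18), or 9.3-fold and 7.09-fold lower. FBN2, fibrillin-2, a microfibril protein of developing tissue, had 80, 148, 5 and 9 reads, and ratios of -3.56 (95% interval -5.33 to -2.39, exact binomial adjusted p = 4.08e-13) and -3.48 (95% interval -4.70 to -2.58, exact binomial adjusted p = 2.48e-22). RELN, the gene of reelin, a secreted protein that positions migrating neurons, had 43, 25, 6 and 15 reads. It was lower with azacytidine without the knockdown, with a ratio of -2.43 (95% interval -4.04 to -1.28, exact binomial adjusted p = 2.86e-05), and had a ratio of -0.23 (95% interval -1.27 to 0.74, exact binomial adjusted p = 0.839) with it. THBS1, thrombospondin-1, had 26, 40, 3 and 0 reads and was called lower at a mean of 5 reads. SPARC, which binds collagen, had 34, 35, 22 and 11 reads and was not called.

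TNC had its lowest value in the control. It encodes tenascin-C, a large protein of progenitor zones, and had 13, 54, 32 and 30 gene reads. Reads assigned to a TNC transcript were 12, 14, 18 and 18, among which the knockdown library did not stand out. TNR, the related tenascin-R, had 6, 23, 0 and 4 reads. The remaining 3 glycoproteins, FBLN1, FBLN2 and THBS2, had 11 to 25 reads without azacytidine and 1 to 11 with it.

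Fibronectin is spliced at the extra domains EDA and EDB, exons that embryonic and wounded tissue includes and adult plasma fibronectin lacks. They are printed because the long reads show both to be included. The EDA exon lies at chr2:215380811-215381080 and the EDB exon at chr2:215392931-215393203, on the minus strand of GRCh38, and the sequences were cut from GENCODE 29 transcripts.
EDB: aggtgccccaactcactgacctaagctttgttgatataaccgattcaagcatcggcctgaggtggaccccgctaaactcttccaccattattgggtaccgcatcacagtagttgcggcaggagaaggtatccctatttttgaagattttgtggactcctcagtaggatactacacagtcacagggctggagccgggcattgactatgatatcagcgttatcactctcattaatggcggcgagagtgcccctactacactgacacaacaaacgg
EDA: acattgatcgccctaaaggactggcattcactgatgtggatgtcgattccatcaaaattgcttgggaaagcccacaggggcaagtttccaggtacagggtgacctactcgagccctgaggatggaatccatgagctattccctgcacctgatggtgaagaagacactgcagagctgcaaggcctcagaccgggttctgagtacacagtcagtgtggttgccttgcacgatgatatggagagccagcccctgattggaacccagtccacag
Informative reads, here and below, are those assigned to a transcript that includes or skips the exon. Reads that matched several transcripts were divided among them by the upstream estimate, so an informative read need not itself span the exon. Of informative FN1 reads, EDA was in 46 of 50, 70 of 72, 4 of 4 and 1 of 1, or 92% (Wilson 95% interval 81.2 to 96.8) in the control. Counted on reads assigned to 1 transcript alone, EDA was in 12 of 14, 32 of 33, 1 of 1 and 1 of 1. EDB was in 48 of 50, 67 of 71, 3 of 4 and 1 of 1, or 96% (Wilson 95% interval 86.5 to 98.9) in the control. The 2 libraries without azacytidine thus expressed fibronectin mainly with each of the extra domains. In the libraries with the drug 1 to 4 informative reads were left, which cannot show a change of splicing.

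The fibrillar and associated collagens summed to 621 and 651 CPM without azacytidine and to 283 and 243 CPM with it. Of 4 tested, 3 were called lower. COL11A1 (ENSG00000060718.22, chr1:102876467-103108872, minus strand), a chain of the fibril-nucleating collagen XI, had 110, 117, 6 and 9 reads and ratios of -3.77 (95% interval -5.35 to -2.70, exact binomial adjusted p = 9.34e-19) and -3.14 (95% interval -4.37 to -2.23, exact binomial adjusted p = 3.43e-16). COL2A1, the chain of collagen II that cartilage and early neuroepithelium make, had 47, 54, 2 and 1 reads and ratios of -3.96 (95% interval -7.31 to -2.29, exact binomial adjusted p = 1.09e-08) and -4.77 (95% interval -10.59 to -2.72, exact binomial adjusted p = 1.69e-10). COL5A2, of collagen V, had 41, 30, 6 and 4 reads and ratios of -2.36 (95% interval -3.97 to -1.20, exact binomial adjusted p = 6.78e-05) and -2.29 (95% interval -4.37 to -0.90, exact binomial adjusted p = 0.00137). In each of the 3, the higher library with azacytidine had a lower CPM than the lower library without it.

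COL6A1 had more reads with azacytidine in both pairs. It encodes the alpha-1 chain of collagen VI, a beaded-filament collagen, and had 41, 65, 81 and 82 reads. The ratio with azacytidine was 1.30 (95% interval 0.75 to 1.89, exact binomial adjusted p = 2.25e-05) without the knockdown and 0.83 (95% interval 0.35 to 1.33, exact binomial adjusted p = 0.00216) with it, higher in both pairs but under the threshold of size in the second. Its chromosomal neighbour COL6A2, which encodes the alpha-2 chain, had 11, 11, 15 and 13 reads. Among the collagens with a mean of 5 to 20 reads, COL1A1 had 33, 40, 2 and 0 reads, COL5A1 had 17, 41, 1 and 0, COL9A1 had 24, 33, 2 and 0 and COL14A1 had 18, 9, 1 and 0, and these 4 were called lower at the filter of 5. The log2 ratio of COL1A1, of collagen I, was at most -2.87 (upper end of the 95% interval) in the pair with the knockdown. COL1A2, the partner of COL1A1 in collagen I, had 8, 12, 5 and 2 reads and was not called. COL12A1 and COL25A1 had 10 to 15 reads without the drug and 0 to 7 with it. The lowest 3, COL3A1, COL6A3 and COL9A3, had 0 to 6 reads in a library and were not tested.

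COL2A1 is spliced at exon 2, a von Willebrand factor C domain that the type IIA form of progenitor cells holds and the form of mature cartilage lacks. This exon of 207 bases (chr12:47999919-48000125) was in 35 of 38, 43 of 48, 2 of 2 and 0 of 0 informative reads, so the control included it in 92.1% (Wilson 95% interval 79.2 to 97.3). Uniquely assigned reads gave 33 of 36, 31 of 35, 1 of 1 and 0 of 0. The form with exon 2 was therefore the main one in both libraries with enough reads.

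The proteoglycans held the gene with the largest fall in reads and 1 of the genes that rose. VCAN (ENSG00000038427.16, chr5:83471618-83582303, plus strand), the gene of versican, a chondroitin sulfate proteoglycan that binds hyaluronan, had 240, 438, 24 and 7 reads, or 387, 639, 48.6 and 14.4 CPM. Its log2 ratio with azacytidine was -2.97 (95% interval -3.67 to -2.39, exact binomial adjusted p = 3.76e-33), or 7.84-fold lower, and -5.39 (95% interval -6.79 to -4.41, exact binomial adjusted p = 9.81e-87), or 41.8-fold lower, with the knockdown. SPOCK2 (ENSG00000107742.14, chr10:72059034-72089032, minus strand), testican-2, a neuronal proteoglycan of the SPARC family, had 47, 49, 110 and 88 reads, so both libraries with the drug lay above both without it. Its ratios were 1.54 (95% interval 1.05 to 2.08, exact binomial adjusted p = 3.8e-09) and 1.33 (95% interval 0.82 to 1.88, exact binomial adjusted p = 1.08e-06), a rise of 2.91-fold and 2.52-fold. SPOCK1, testican-1, did not do the same, with 85, 103, 70 and 45 reads and ratios of 0.05 (95% interval -0.43 to 0.52) and -0.69 (95% interval -1.23 to -0.18). NCAN, neurocan, a brain relative of versican, had 83, 137, 69 and 156 reads and was highest with both treatments. BCAN, brevican, had 0, 3, 3 and 7 reads and was too low to test.

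Versican isoforms differ by 2 large exons that carry the chondroitin sulfate chains, GAG-alpha and GAG-beta. GAG-beta (5262 bases, chr5:83537007-83542268) was in 154 of 162, 239 of 251, 20 of 21 and 7 of 7 informative reads. GAG-alpha (2961 bases, chr5:83519349-83522309) was in 93 of 162, 215 of 252, 13 of 21 and 3 of 6, which is 57.4% (Wilson 95% interval 49.7 to 64.8) in the control and 85.3% (Wilson 95% interval 80.4 to 89.2) with the knockdown. This difference between the 2 libraries had a Fisher's exact adjusted p of 2.9e-07, and the pair with azacytidine an adjusted p of 1. It rested on reads that were divided among transcripts, since uniquely assigned reads gave 11 of 15, 21 of 24, 3 of 5 and 0 of 0, and it was not called.

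Syndecans and glypicans are cell-surface proteins that carry heparan sulfate and present growth factors. Of the 7, all with a mean of at least 20 reads, 3 were called lower with azacytidine. GPC4 (ENSG00000076716.9, chrX:133300103-133415489, minus strand), a glypican of neural progenitors, had 62, 60, 7 and 3 reads and ratios of -2.74 (95% interval -4.19 to -1.69, exact binomial adjusted p = 3.59e-08) and -3.65 (95% interval -6.14 to -2.21, exact binomial adjusted p = 1e-09). GPC3, its neighbour on chromosome X and a glypican of embryonic growth control, had 50, 21, 10 and 0 reads. With azacytidine its ratio was -1.95 (exact binomial adjusted p = 0.000128) without the knockdown. With the knockdown it was at most -1.88 (upper end of the 95% interval, exact binomial adjusted p = 9.99e-05). GPC6, the member of this group with most control reads, had 102, 87, 40 and 14 reads and ratios of -1.02 (95% interval -1.59 to -0.48, exact binomial adjusted p = 0.00082) and -2.10 (95% interval -3.07 to -1.31, exact binomial adjusted p = 3.67e-08), and its call was lost under 6 of 13 other settings. The other 4 were not called. SDC3, the syndecan of neurons, had 46, 57, 55 and 57 reads, and GPC1 and GPC2 had 57, 85, 46 and 91, and 26, 11, 26 and 22. SDC2 had 90, 70, 29 and 40 reads and passed the thresholds only in the pair without the knockdown, with ratios of -1.29 (95% interval -1.96 to -0.69) and -0.30 (95% interval -0.91 to 0.27).

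Of the receptors, 2 integrin alpha chains were called lower and 1 higher with azacytidine among 6 tested. ITGA6 (ENSG00000091409.17, chr2:172234216-172506459, plus strand), the alpha-6 chain, a laminin receptor of stem and progenitor cells, had 57, 116, 7 and 22 reads and ratios of -2.62 (95% interval -4.08 to -1.56, exact binomial adjusted p = 3.86e-07) and -1.88 (95% interval -2.63 to -1.23, exact binomial adjusted p = 2.77e-09). ITGAV, the alpha-v chain, which binds fibronectin and vitronectin, had 58, 174, 22 and 24 reads and ratios of -1.06 (95% interval -1.85 to -0.34, exact binomial adjusted p = 0.0122) and -2.34 (95% interval -3.04 to -1.74, exact binomial adjusted p = 1.37e-17). Its call was lost with the length trend removed and in the additive DESeq2 model. ITGA3 (ENSG00000005884.18, chr17:50055968-50090481, plus strand), the alpha-3 chain and another laminin receptor, had 17, 25, 31 and 58 reads and was the only receptor called higher, with ratios of 1.17 (95% interval 0.30 to 2.14, exact binomial adjusted p = 0.025) and 1.69 (95% interval 1.01 to 2.45, exact binomial adjusted p = 2.15e-06). That call was lost under 3 of 12 other settings, among them reads assigned to transcripts.

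ITGB1, the beta-1 chain with which alpha-3, alpha-6 and alpha-7 pair, had the most reads of the receptors, 199, 251, 120 and 127, and ratios of -0.40 (95% interval -0.74 to -0.07) and -0.48 (95% interval -0.80 to -0.17). ITGA7, the third laminin-binding alpha chain measured, had 60, 94, 57 and 63 reads, and DAG1, the gene of dystroglycan, had 64, 97, 48 and 42. These 3 were not called. Among the laminin receptors, then, ITGA6 fell, ITGA3 rose and ITGA7 and DAG1 were not called. Of the 5 receptors below the main filter, ITGA5, which pairs with beta-1 to bind fibronectin, had 18, 19, 2 and 2 reads. ITGB5 and ITGB8, partners of alpha-v, had 37, 31, 6 and 2, and 20, 22, 0 and 0. These 3 were called lower at a mean of 5 reads. The log2 ratios of ITGB8 were at most -1.98 and -1.95 (upper ends of the 95% intervals) without and with the knockdown. ITGA1 and ITGA9, a collagen and a tenascin receptor, had 13 to 29 reads without the drug and 1 to 6 with it, and were not called at that filter.

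**Figure D3:**
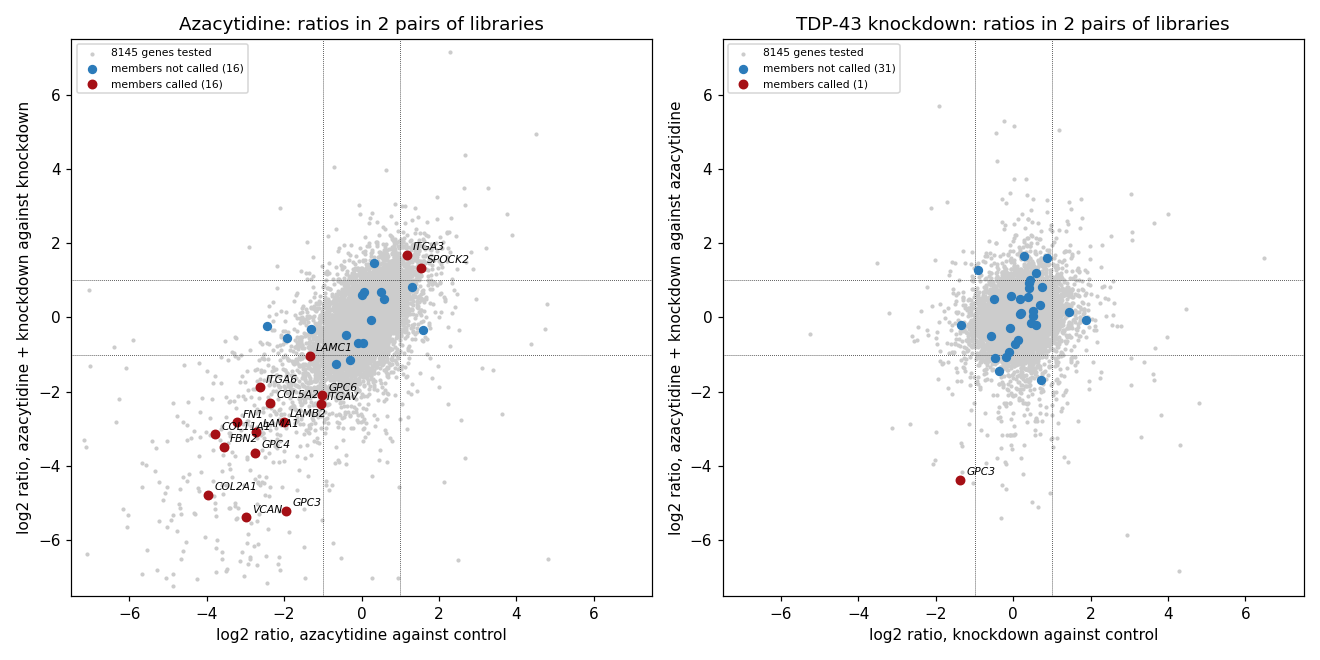
Both panels plot the log2 ratio (pseudocount 0.5) in 1 pair of libraries against that in the pair that shares no library with it, for azacytidine on the left and the TDP-43 knockdown on the right, with 8145 genes in grey, members in blue and called members in red with their names; 5 genes lie outside the axes and dotted lines mark a ratio of 1. On the left 14 called members lie at the lower left and SPOCK2 and ITGA3 at the upper right, and on the right GPC3 is the only one called, drawn in both panels at its pseudocount value where 1 library is at 0.

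With the TDP-43 knockdown, GPC3 was the only member called, and it was lower. Its log2 ratio was -1.37 (95% interval -2.21 to -0.63, exact binomial adjusted p = 0.00145) without azacytidine. With azacytidine it went from 10 reads to 0, a log2 ratio of at most -1.14 (upper end of the 95% interval, exact binomial adjusted p = 0.0184). Of the GPC3 reads, 31, 16, 2 and 0 were assigned to a transcript. The call was lost in both additive models over the 4 libraries and with no filter beyond 1 read, and 3 other settings left GPC3 too few reads to test. ITGAV had a knockdown ratio of 1.43 (95% interval 1.00 to 1.89, exact binomial adjusted p = 1.7e-10) without azacytidine and 0.15 (95% interval -0.74 to 1.06, exact binomial adjusted p = 0.92) with it. Reads assigned to an ITGAV transcript were 55, 70, 10 and 9, so most of the additional gene reads in the knockdown library had no transcript. TNC had a ratio of 1.87 (95% interval 1.02 to 2.91, exact binomial adjusted p = 7.03e-05) without azacytidine and -0.06 (95% interval -0.83 to 0.70, exact binomial adjusted p = 0.984) with it.

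Other members passed the rule in 1 knockdown pair alone. The rule for the pair without azacytidine was met by 2 members higher (TNC and ITGAV) and 2 lower (GPC2 and GPC3), where it was met by 6.19% and 2.15% of all genes tested. In the pair with azacytidine it was met by 4 higher (COL18A1, ITGA6, NCAN and GPC1) and 4 lower (VCAN, GPC6, LAMB1 and GPC3), beside 4.51% and 3.94% of all genes. For the 4 higher, reads assigned to a transcript rose less than gene reads, from 15 to 19, 6 to 11, 55 to 75 and 38 to 57. VCAN had opposite signs, with a knockdown ratio of 0.72 (95% interval 0.49 to 0.96, exact binomial adjusted p = 1.23e-08) without azacytidine and -1.68 (95% interval -3.21 to -0.49, exact binomial adjusted p = 0.0277) with it. ITGA6 was higher with the knockdown in both backgrounds, with 0.87 (95% interval 0.41 to 1.36, exact binomial adjusted p = 0.00158) and 1.61 (95% interval 0.40 to 3.15, exact binomial adjusted p = 0.0366), but under the threshold of size in the first. LAMB1 was lower in both, with -0.48 (95% interval -0.86 to -0.11, exact binomial adjusted p = 0.0457) and -1.09 (95% interval -1.75 to -0.48, exact binomial adjusted p = 0.00332). With the libraries paired crosswise, so that a call marks a knockdown ratio of opposite sign in the 2 backgrounds, 0 members were called higher or lower, where 0.405% and 0.135% of all genes were. At an unadjusted exact p under 0.05 in both crosswise pairs there was 1 member, VCAN, in the direction of higher without azacytidine, where 2.65% of all genes were, and 0 in the other, where 0.675% were.

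Splicing was examined in 24 internal exons of members among 8989 in all genes. A call needed a Fisher's exact adjusted p under 0.05 and a change of at least 10 percentage points in both pairs. None of the 24 was called with the knockdown, beside 0.145% of all exons higher and 0.122% lower, and 0 at an unadjusted p under 0.05 in both pairs. None was called with azacytidine, beside 0.723% higher and 0.245% lower, and 1 had an unadjusted p under 0.05 in both pairs. Of 36 member transcripts among 14131, 0 changed in their share of the gene's reads with the knockdown, beside 0.418% higher and 0.382% lower, or with azacytidine, beside 0.545% and 0.708%. At an unadjusted p under 0.05 in both pairs there were 0 and 1. Such unadjusted counts were not taken over all exons or all transcripts, so those of the members cannot be set beside a share. In 1 pair alone, the knockdown without azacytidine changed 2 member exons, and 3.66% of all exons, and 7 member transcripts, and 7.47% of all transcripts. The knockdown with azacytidine changed 0 exons and 0 transcripts, beside 1.71% and 4.86%. Azacytidine changed 2 exons and 3 transcripts without the knockdown, beside 3.39% and 6.35%, and 1 exon and 2 transcripts with it, beside 4.09% and 7.92%.

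Some exons describe the receptor forms of these cells. An exon of 130 bases near the end of ITGA6 (chr2:172501772-172501901) gives the A form of the cytoplasmic tail, and its skipping gives the B form. It was in 3 of 44, 5 of 73, 1 of 6 and 0 of 11 informative reads, so the B tail prevailed in all 4 libraries. In ITGA3 the matching exon of 142 bases (chr17:50088225-50088366) was in 10 of 14, 18 of 19, 17 of 23 and 22 of 24 reads, so there the A tail prevailed. Uniquely assigned reads gave 2 of 7, 4 of 10, 1 of 5 and 0 of 7 for ITGA6 and 6 of 10, 13 of 14, 10 of 15 and 16 of 18 for ITGA3.

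Both ITGA6 and ITGA7 also have alternative exons in the extracellular propeller that shape laminin binding. In ITGA6 an exon of 132 bases (chr2:172470974-172471105) was in 44 of 44, 65 of 73, 5 of 6 and 7 of 11 reads and its neighbour of 117 bases (chr2:172472774-172472890) in 0 of 44, 8 of 73, 4 of 6 and 4 of 11. The 117-base exon differed between azacytidine and control (Fisher's exact adjusted p = 0.00412) but not past the threshold between both treatments and the knockdown (exact adjusted p = 0.379). Only 6 and 11 reads were informative in the libraries with the drug. Uniquely assigned reads were fewer, with 7 of 7, 8 of 10, 4 of 5 and 4 of 7 for the 132-base exon. For the 117-base exon they were 0 of 7, 2 of 10, 3 of 5 and 3 of 7, so the difference rested mainly on divided reads in the control. In ITGA7 the exon of 120 bases was in 22 of 30, 21 of 27, 17 of 19 and 13 of 17 reads and the one of 132 bases in 10 of 30, 8 of 27, 2 of 19 and 4 of 17, with adjusted p-values of 0.903 and 0.599 for azacytidine against control (Fisher's exact test). Uniquely assigned reads gave 7 of 9, 15 of 18, 11 of 12 and 4 of 6 for the first and 3 of 9, 5 of 18, 1 of 12 and 2 of 6 for the second.

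LAMB1 had an exon of 136 bases (chr7:107998357-107998492) with differences in opposite directions. It was in 46 of 46, 22 of 36, 14 of 19 and 21 of 21 reads, so the control and the library with both treatments included it throughout and the libraries with 1 treatment did not. The Fisher's exact adjusted p was 0.000213 for the knockdown without azacytidine and 0.39 with it, and 0.0426 and 0.0255 for azacytidine without and with the knockdown. Uniquely assigned reads were too few to show this, with 7 of 7, 1 of 2, 3 of 4 and 2 of 2.

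**Figure D4:**
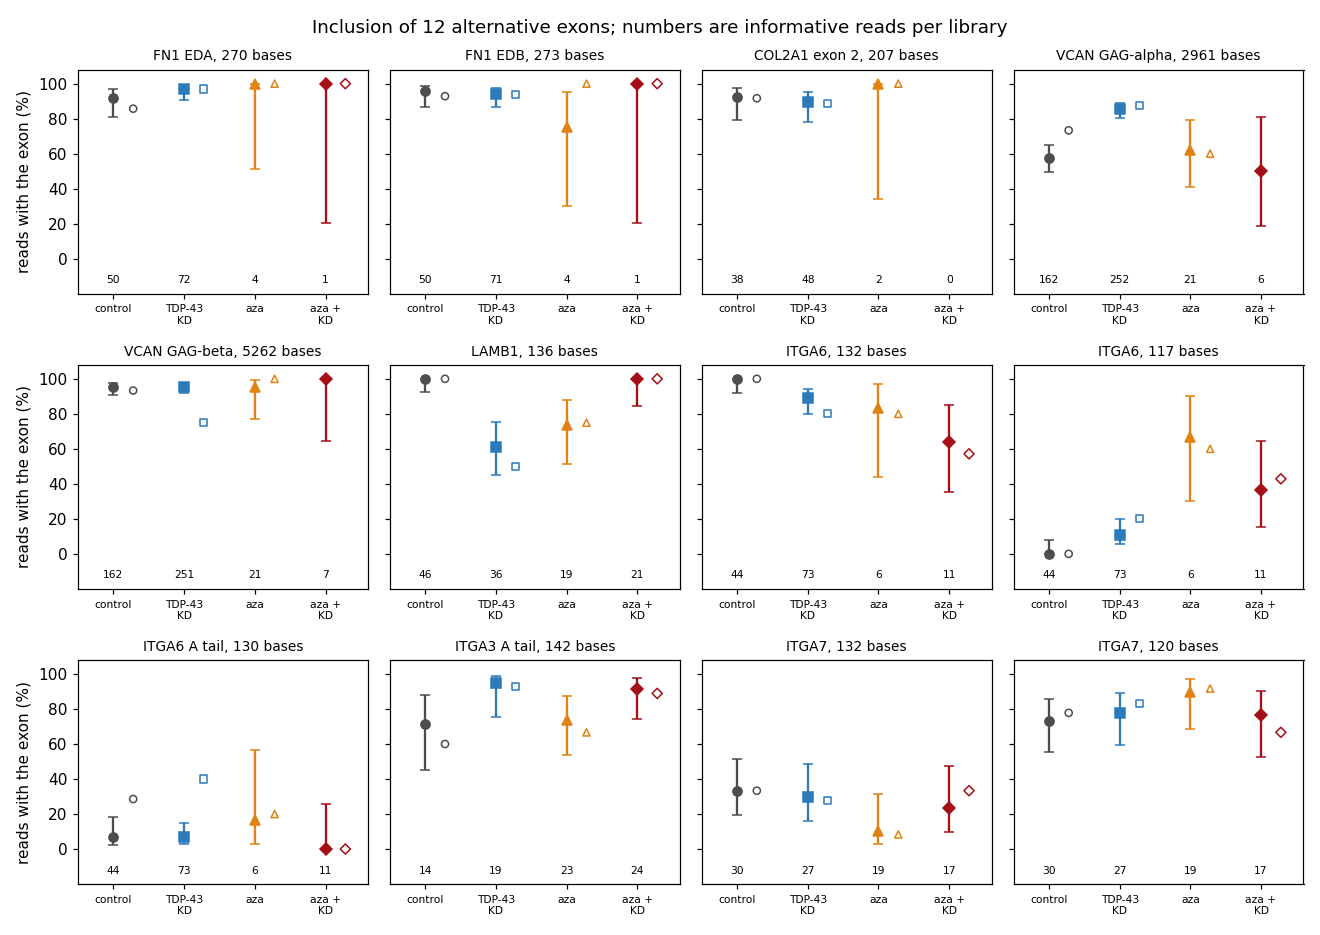
Each panel is 1 alternative exon, with the percentage of informative reads that include it on the y axis, Wilson 95% intervals that cover counting error only, and the number of informative reads under each library. Filled points use reads divided among transcripts and open points reads assigned to 1 transcript alone, and the intervals widen in the azacytidine libraries, where FN1, COL2A1 and ITGA6 had 0 to 11 informative reads.

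The genes that make, cut and anchor matrix were counted from lists written with earlier results of these data known. For each list, the share to set beside the counts is that of all genes tested, 6.89% called lower with azacytidine and 2.93% higher. Of the collagen folding and crosslinking genes, 1 of 13 tested was lower with azacytidine and 0 were higher. It was P4HA1, a collagen prolyl hydroxylase, with 33, 120, 10 and 11 reads. Of matrix proteases and inhibitors, 2 of 15 were lower, ADAMTS9 with 69, 98, 2 and 9 reads and ADAM12 with 49, 63, 12 and 3. Genes that build, edit or link glycosaminoglycan chains had 5 of 23 lower and 0 higher. SULF1, which removes sulfate from heparan sulfate at the cell surface, had 200, 250, 2 and 4 reads. HS6ST3 and HS2ST1, which add sulfate to the same chains, had 37, 49, 7 and 2, and 96, 124, 31 and 13.

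Of 22 tested genes of the integrin adhesion complex, such as talins, kindlins and focal adhesion kinase, 0 were called with azacytidine. Of 6 in reelin signaling 0 were called, where the rule called 6.89% of all genes tested lower and 2.93% higher. At an unadjusted exact p under 0.05 in both pairs, 3 of the adhesion genes and 1 of the reelin genes were lower and 0 higher, beside 13% and 9.32% of all genes tested. In the dystroglycan list, 4 of 15 were called lower and 1 higher, beside the same 6.89% and 2.93% of all genes tested. The 3 with the largest change in both pairs were DMD, the gene of dystrophin, with 52, 151, 6 and 2 reads, UTRN, of utrophin, with 37, 94, 5 and 3, and B3GALNT2, a glycosyltransferase that extends the laminin-binding sugar of dystroglycan, with 43, 99, 14 and 26. The gene that was higher, named after its value was seen, was POMGNT1, another enzyme of the same sugar, with 30, 71, 69 and 109 reads. With the knockdown 0 genes of these 6 lists were called, beside 0.626% of all genes tested higher and 0.344% lower. At an unadjusted exact p under 0.05 in both pairs, 5 were higher and 0 lower, beside 5.83% and 1.53% of all genes tested. In the order given here, with the dystroglycan list last, the lists had 13, 15, 23, 22, 6 and 15 genes tested. The adhesion and reelin lists share some genes, which count in both. Differences between lists were not tested.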

How the data were processed

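The deposited tables hold estimated counts per gene and per transcript, made by the authors with minimap2 on hg38 and Bambu, per the file headers and the submitters' processing notes. Versions and settings were not given in the sources used here. Companion tables hold counts of full-length and of uniquely assigned reads per transcript, as deposited. All deposited counts per gene lay within 0.00031 of an even number, so counts were divided by 2 and are called reads. Why they are even is not given in the sources used here, and if the deposited numbers were the reads, each would be 2 times larger. With counts as deposited, all 16 azacytidine calls and the knockdown call were kept. The deposited CPM were not used for any value, and the deposited transcript annotation, a table of other content, gave exon positions. Gene reads include those assigned to no transcript.

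Each pair of libraries was compared with an exact binomial test on reads, with TMM effective library sizes (edgeR 4.0.16, R 4.3.3), a pseudocount of 0.5 on the log2 ratio, and Benjamini-Hochberg adjustment over the 8145 genes whose mean reached 20 reads. Exons and transcripts were compared with Fisher's exact test (scipy 1.17.1, Python 3.11.15), on reads divided among transcripts and rounded to whole reads. A call required both pairs that share no library. Alternatives were additive edgeR and DESeq2 1.42.0 models, other scalings, filters and read classes. Scripts were tested on simulated data. Intervals cover counting error only, and where the treated library had 0 reads the interval has only an upper end. Reads are not molecules counted with identifiers.

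By rule the named genes are TARDBP, every member called, the member with most control reads in each role group, and up to 3 called genes in each pathway list, and the report says which other genes were named after their values were seen. The members and the lists were chosen with earlier results of these data known. RefSeq sequences are of GRCh38.p14.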

Additional observations from a re-analysis of the deposited data

How the results depend on the processing

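The count of members lower with azacytidine (14) was 25 with a filter at 5 reads, 24 with no filter beyond 1 read, 8 in the additive DESeq2 model, 3 on uniquely assigned reads (11 members tested) and 0 on full-length reads. That last count shows nothing, since full-length reads left 2 members to test and none of the 16 called. The count higher (2) was 1 with no filter, 1 on transcript reads, 0 on uniquely assigned reads, 0 on full-length reads, 0 in the DESeq2 model and 4 in the pair without the knockdown alone. The knockdown count lower (1) was 0 with no filter, and in both additive models, and also 0 on uniquely assigned, full-length or transcript reads, where GPC3 could not be tested. For knockdown and crosswise comparisons, 1 pair alone gave 2 without azacytidine and 4 with it, in each direction. Exons called were 2 in the knockdown pair without azacytidine alone, and with azacytidine 1 on counts as deposited, 2 without the knockdown and 1 with it. Transcripts called were 7 in that knockdown pair, and 3 and 2 in the azacytidine pairs. The causes were not tested, except that the read classes and filters change how many genes are tested. The members' median ratios ranged from -1.53 to -0.81 (azacytidine) and from -1.90 to -0.65 (with the knockdown), and from -0.08 to 0.29 and -0.06 to 0.21 for the knockdown without and with azacytidine. No called ratio changed sign. Of 16 azacytidine calls, 15 were kept in the additive edgeR model, 14 with total counts, 13 with the length trend removed and 8 in the DESeq2 model. The median transcript length was 5542 bases in the 32 members tested and 4009 in all genes tested. Full-length reads made up 28.2%, 23.3%, 35.7% and 31.2% of transcript reads in the control, knockdown, azacytidine and doubly treated library. Scaling by total counts moved the medians of all genes from 0.18 to -0.04 and from 0.05 to -0.01 (knockdown without and with azacytidine) and from -0.10 to 0.08 (azacytidine with the knockdown), changing their sign. Full-length reads left 0 member exons to test. The alternative on transcript reads was chosen after seeing the data.

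No paired analysis was possible because every library has replicate number 1, so the groups share fewer than 2 numbers. With 1 library a group, harvest day, culture and library preparation cannot be told apart from the treatments. Genes with under 20 reads on average show only large differences, and the azacytidine libraries held too few reads of FN1, COL2A1 and VCAN to compare their splicing.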
